A study of Mus musculus with 4 samples.

Results

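Potassium channels set the resting membrane potential of arterial smooth muscle. When they open, potassium leaves the cell, the membrane hyperpolarizes, voltage-gated calcium channels close and the vessel relaxes. Pore-forming subunits fall into families that open with voltage, with intracellular calcium or other ions, or at rest, and auxiliary subunits bind to them and set their gating and their number at the surface. The genes described here are the 93 rows, of 39179 in the deposited table, whose symbol starts with Kcn followed by further letters and a number. They cover 92 symbols, since Kcnb2 is listed under 2 Ensembl identifiers, and were grouped by symbol into 41 voltage-gated, 8 calcium-activated, 15 inward rectifier, 14 two-pore-domain and 15 auxiliary subunits. The calcium-activated group also holds the relatives of the large-conductance channel that respond to sodium (Kcnt1 and Kcnt2) or pH (Kcnu1).

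RNA came from primary mouse aortic smooth muscle cells, taken 18 days after tamoxifen. The 2 knockout libraries came from Sm-Yap/Taz-KO mice, labelled as a smooth muscle knockout of YAP (gene Yap1) and its relative TAZ (gene Wwtr1), co-activators of transcription, and the 2 other libraries from wild-type mice, which the labels place at the same time after tamoxifen. The comparison asks which transcripts differ between cells of the 2 genotypes. The driver of the deletion, the strain, the age of the mice and whether the libraries of a group come from different animals are things the sources used here do not give, so p-values cover only the spread of these samples, possibly a technical one.

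The normalized counts summed to between 13279332 and 14519178 per library, and reads on genes were estimated at 11810000 to 16810000, with the knockout libraries the shallower. Yap1 was at 947 and 962 normalized counts in knockout cells and at 1966 and 1877 in wild-type cells. Wwtr1 was at 2848 and 2466 against 3423 and 4016. Both were lower in each knockout library, Yap1 with an adjusted p of 0.00802 by limma and Wwtr1 with one of 0.0553, which missed the threshold. All 12 contractile smooth muscle markers were detected in every library, led by Myh11 at 168117 and 164384 in wild-type cells, and 9 of them fell in knockout cells. The libraries also held RNA of other cells: all 14 macrophage markers rose (summed normalized count 13835 and 19497 in knockout cells, 1299 and 3616 in wild-type cells), as did 7 of 10 adipocyte (17817 and 16497 against 2138 and 6693), 5 of 10 endothelial (12775 and 11031 against 4695 and 7084), 2 of 10 fibroblast (313196 and 328098 against 89507 and 196999) and 1 of 7 tested Schwann cell and neuron markers (945 and 997 against 299 and 662 over all 12). None of these markers was at 0 in all libraries, although Th, the enzyme of catecholamine synthesis, reached only 2 normalized counts. Over all tested genes 9.58% rose and 6.7% fell, beside 14.3% of the tested Schwann cell and neuron markers that rose. Genes counted as rising or falling are those with an adjusted p under 0.05 by limma. All 10 endothelial and all 10 fibroblast markers were higher in both knockout libraries, as were 30.7% of all tested genes. In bulk RNA, fewer cells of a type and less RNA per cell cannot be told apart, and the part that these other cells had in the results below was not tested.

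Of the 93 genes, 44 had a mean of at least 10 normalized counts over the 4 libraries and were tested. At an adjusted p under 0.05 (limma on log2 of the normalized count plus 1, Benjamini-Hochberg over all 15058 tested genes), 3 rose and 7 fell in knockout cells, and 34 did not pass. These are 6.82% and 15.9% of the tested members, beside 9.58% higher and 6.7% lower over all tested genes. The fallers included the auxiliary subunits Kcnmb1, Kcnab1 and Kcnip4 and the voltage-gated subunits Kcnq3, Kcnd3 and Kcnc4. The risers were the auxiliary subunit Kcnab2 and the two-pore-domain channels Kcnk3 and Kcnk13. The median log2 fold change was 0.08 over the tested members and -0.02 over the whole tested set. No overlap between groups was seen for 32 of the 44 members (72.7%, against 62.8% in the tested set), 16 of them higher (background 30.7%) and 16 lower (background 32.1%). After rescaling to the same total, 6 members rose and 7 fell (12.2% and 5.67% of all tested genes), the added risers being Kcna1, Kcnk6 and Kcnt2. Quantile normalization gave 4 and 7 (10.1% and 8.35%), adding Kcna1. Limma called no member, and no gene at all, without the filter on low counts or without the intensity trend. With the filter and the trend, 12 of 44 members were higher and 9 lower at an unadjusted p under 0.05 by limma. Over all 15058 tested genes these counts were 2699 and 2199. At the same unadjusted p, the fit without the filter had 12 members higher and 9 lower, of 82. Over all 23812 genes of that fit it had 2812 and 2660. The fit without the trend had 10 and 8 of 44 members, beside 2394 and 1880 of 15058 genes. Calls were also lost when a library was left out, which leaves 1 library in a group. The direction of all 10 was the same in all 13 alternatives run. Where groups do not overlap, leaving out a library cannot reverse the direction, so that part was fixed in advance.

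**Figure D1:**
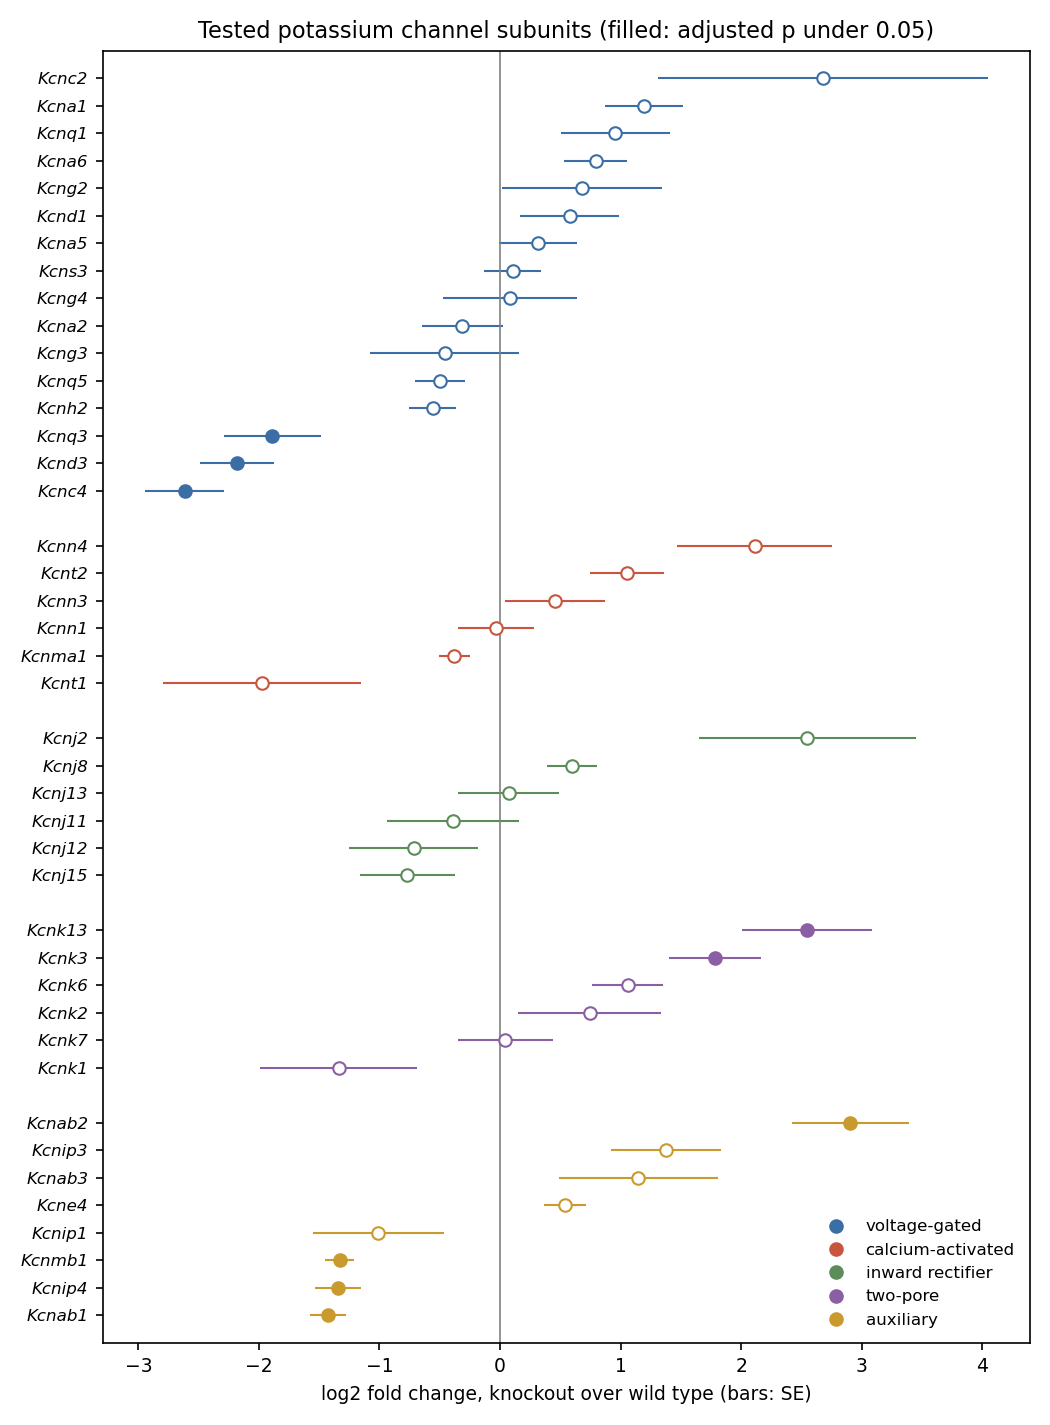
Log2 fold change of knockout over wild type (x axis, log2 of normalized count plus 1, bars are limma standard errors) for 42 of the 44 tested potassium channel genes, grouped and coloured by class. Filled points passed an adjusted p of 0.05: 6 lie below 0, among the voltage-gated and auxiliary genes, and 3 lie above 0, among the two-pore-domain and auxiliary genes.

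The large-conductance calcium-activated channel, known as BK, has its pore formed by the Kcnma1 protein. In smooth muscle it pairs with the β1 subunit encoded by Kcnmb1, which raises its sensitivity to calcium, so that local calcium release opens it. Kcnmb1 (ENSMUSG00000020155, GRCm38 chromosome 11, 33963013 to 33973641, plus strand) had 1805 and 1537 normalized counts in knockout cells and 4364 and 4017 in wild-type cells. Both knockout libraries lay far below both wild-type libraries, a 2.51-fold fall (log2 fold change -1.33 with SE 0.12, adjusted p = 0.00632 by limma). Kcnma1 (chromosome 14, 23289431 to 24014491, minus strand) was at 2653 and 2199 against 3307 and 2990. Its groups did not overlap either, but the log2 fold change of -0.38 (SE 0.13, 95% interval -0.70 to -0.06) did not pass, with an adjusted p of 0.101 by limma. Per kilobase of exon, Kcnmb1 stood at 2.76 and 2.83 times the level of Kcnma1 in knockout cells and at 5.35 and 5.44 times in wild-type cells. Contractile smooth muscle markers fell in the same libraries, and the count of Kcnmb1 relative to them depended on the marker. Over the 12 markers, the ratio was higher in both knockout libraries for 3, lower in both for 6 and overlapping for 3. Kcnmb1 counts equalled 2.78% and 3.09% of those of Myh11, the smooth muscle myosin heavy chain, in knockout cells and 2.60% and 2.44% in wild-type cells, but 34.6% and 39.4% of those of Cnn1, or calponin, against 52.6% and 51.7%. The ratio of Kcnma1 was higher in both knockout libraries for 11 of the 12 markers and overlapped for Ntn1. Kcnma1 counts equalled 4.08% and 4.42% of those of Myh11 against 1.97% and 1.82%. The other BK β genes were nearly silent: Kcnmb2 was listed at 0 throughout, Kcnmb3 reached 6 and Kcnmb4 reached 2 normalized counts. By the estimated normalized counts per read, a 0 held no read. The expected number of reads behind a 0 could still be up to 3, a limit that covers counting error only.

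Kcnmb1 lies on the opposite strand inside the span of another family member, Kcnip1 (chromosome 11, 33629339 to 33993152, minus strand), with no overlap of annotated exons. Kcnip1 was at 9 and 19 in knockout cells and 28 and 27 in wild-type cells (log2 fold change -1.01 with SE 0.54, adjusted p = 0.259 by limma).

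The promoter windows of RefSeq (GRCm38.p6, 250 bases before to 50 after a start) were searched for GGAATG, the core of the motif bound by TEAD factors, the DNA-binding partners of YAP and TAZ, and for the CArG box, the motif bound by SRF, on both strands. A CArG box can share its last bases with GGAATG, which happened in no member window, since none held a CArG box. The windows of Kcnmb1, the most abundant member, and of Kcnk13, the one gene among those that passed whose window matched, are shown 5′ to 3′, with the match in capitals (CATTCC is GGAATG on the other strand).
Kcnmb1, chr11:33962763-33963062, plus strand: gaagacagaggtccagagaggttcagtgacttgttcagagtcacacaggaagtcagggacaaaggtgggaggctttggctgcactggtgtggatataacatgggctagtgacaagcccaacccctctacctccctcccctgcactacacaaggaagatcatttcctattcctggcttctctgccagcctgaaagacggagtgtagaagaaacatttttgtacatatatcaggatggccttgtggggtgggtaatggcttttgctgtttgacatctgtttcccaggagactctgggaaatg
Kcnk13, chr12:99964249-99964548, plus strand: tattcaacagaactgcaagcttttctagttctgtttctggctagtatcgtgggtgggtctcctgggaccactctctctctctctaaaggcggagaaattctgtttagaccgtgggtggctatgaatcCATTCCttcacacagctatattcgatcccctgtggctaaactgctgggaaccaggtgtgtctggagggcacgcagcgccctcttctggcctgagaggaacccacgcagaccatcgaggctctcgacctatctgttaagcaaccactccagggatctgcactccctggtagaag
The table held windows for 67 of the 92 symbols and for 7 of the 10 genes that passed. GGAATG was found in 1 of the 12 windows of those 7 genes, in 13 of the 92 windows of all members (14.1%) and in 14.7% of all 32851 windows. The CArG box was in no member window and in 1.63% of all windows. These letters are absent from the window of Kcnmb1, which says nothing of sites elsewhere.

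Limma called none of the 6 tested calcium-activated genes, while 2 higher and 1 lower, Kcnma1, had an unadjusted p under 0.05. At that unadjusted p, 2699 of all 15058 tested genes were higher and 2199 lower. At the adjusted threshold 9.58% rose and 6.7% fell. Kcnt2, a sodium-activated relative of the BK channel, was at 1173 and 687 in knockout cells and 350 and 535 in wild-type cells, with both knockout libraries higher (log2 fold change 1.05 with SE 0.31, adjusted p = 0.0693 by limma). Its relative Kcnt1 was far lower in level, at 2 and 6 against 26 and 11 (log2 fold change -1.97), and did not pass. Its knockout mean of 4.0 lay below the filter, so Kcnt1 was tested only through its wild-type level. Kcnn4, the intermediate-conductance channel, which immune and proliferating cells also use, was at 51 and 57 against 6 and 22 (2.11 with SE 0.64, adjusted p = 0.0766 by limma). The small-conductance channel genes Kcnn1, at 51 and 44 against 49 and 48, and Kcnn3, at 30 and 27 against 20 and 21, were low in all libraries, and Kcnn2 did not exceed 6.

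Voltage-gated channels open as the membrane depolarizes and so limit contraction. Of 41 genes, 18 were tested: 4 fell, limma called none higher (2 at an unadjusted p under 0.05) and 14 did not pass. The fallers were 22.2% of the class, beside 6.7% of all tested genes, and the risers 0% beside 9.58%. At an unadjusted p under 0.05 by limma, 2699 of all 15058 tested genes were higher. The median log2 fold change of the class was -0.12. Kcnc4, a fast-activating channel of the Kv3 family, showed the largest fall of all members, from 168 and 266 in wild-type cells to 39 and 29 in knockout cells. That is a 6.38-fold difference (log2 fold change -2.62 with SE 0.33, adjusted p = 0.0102 by limma). Kcnd3, which encodes the pore of a transient outward current, followed at 260 and 134 against 905 and 800, a 4.33-fold fall (log2 fold change -2.18 with SE 0.31, adjusted p = 0.0125 by limma). Knockout replicate 1 exceeded replicate 2, and both stayed far below the wild-type libraries. Both genes lie on chromosome 3, Kcnd3 at 105452330 to 105674002 (plus strand) and Kcnc4 at 107438303 to 107459552 (minus strand).

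Kv7 channels, the Kcnq family, are open near the resting potential and are a known brake on vascular tone. Kcnq3 was at 34 and 75 against 212 and 170, a 3.50-fold fall (-1.89 with SE 0.40, adjusted p = 0.031 by limma), with the knockout libraries spread more than the wild-type ones. Without knockout replicate 2 the fold was 5.62. Kcnq5 was at 397 and 345 against 631 and 434, where the groups stayed apart but the change missed the threshold (-0.50 with SE 0.21, adjusted p = 0.162 by limma). Kcnq1 was low, at 37 and 26 against 15 and 16, and in the opposite direction (0.96 with SE 0.46, adjusted p = 0.208 by limma). Kcne4, an auxiliary subunit that can join Kv7 channels, was at 497 and 607 against 338 and 422 (0.54 with SE 0.18, adjusted p = 0.0918 by limma).

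**Figure D2:**
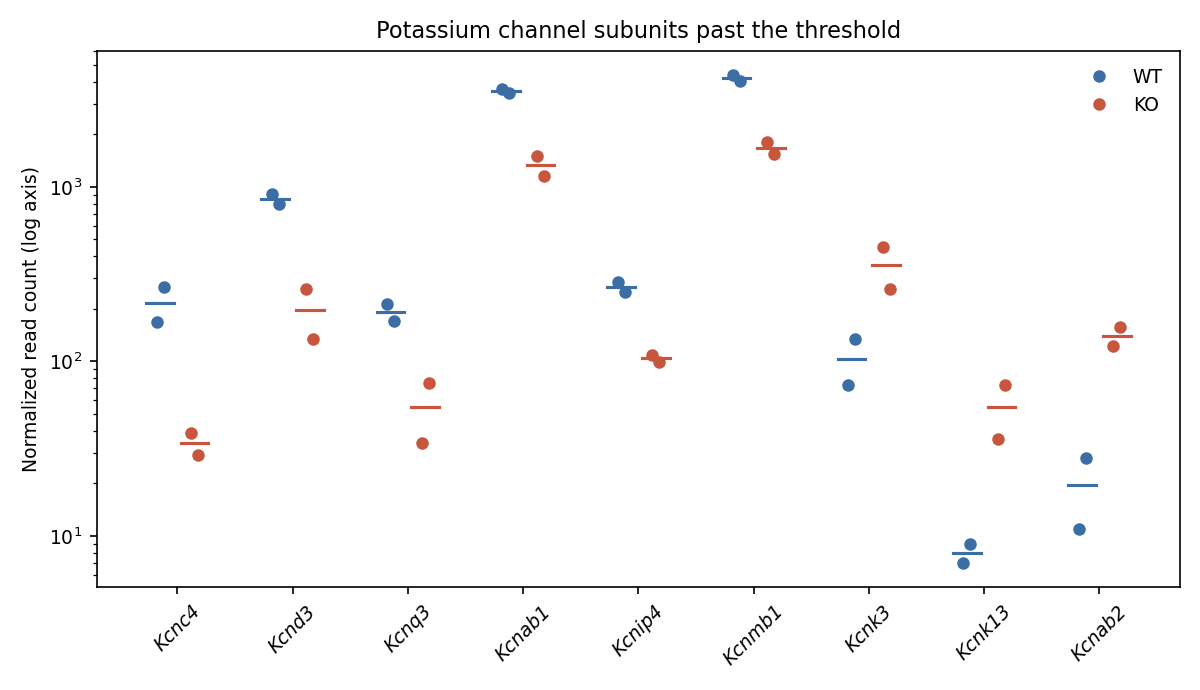
Normalized read counts (log y axis) of 9 of the 10 potassium channel genes that passed the threshold, ordered by fold change, with a point per library and a line at each group's mean. Wild-type and knockout points do not overlap for any of them, from Kcnc4 at 168 and 266 against 39 and 29 to Kcnab2 at 11 and 28 against 123 and 157.

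Kcnh2, the ERG channel, was the voltage-gated gene with the highest level per kilobase, with 866 and 640 normalized counts in knockout cells and 1237 and 974 in wild-type cells. Its groups did not overlap, and its log2 fold change of -0.56 (SE 0.19) had a limma adjusted p of 0.104. The silent subunit Kcns3, which does not form channels alone but joins Kv2, was at 345 and 228 against 286 and 238, with overlapping groups (0.10, SE 0.24, 95% interval -0.48 to 0.69). Among Kv1 genes, Kcna1 was at 477 and 329 against 129 and 231, with both knockout libraries higher, and narrowly missed the threshold (1.19 with SE 0.32, adjusted p = 0.0575 by limma). Kcna1 lies in a run of 3 genes on chromosome 6, between Kcna5 (126532551 to 126535412) and Kcna6 (126708329 to 126740674). Kcna6 was at 105 and 91 against 57 and 55 (0.79 with SE 0.26, adjusted p = 0.0932 by limma), though an opposite-strand gene overlaps 39.6% of its exon length and reads may be shared. Kcna5, a Kv1 gene of vascular muscle, was at 96 and 65 against 73 and 55, with overlapping groups. The Kv1 genes that precede Kcnc4 on chromosome 3 were low: Kcna3 was at 10 and 9 against 0 and 5, Kcna2 at 74 and 70 against 68 and 118, and Kcna10 at 0.

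The auxiliary class had the highest summed count of the 5 classes in each library. Of 15 genes, 8 were tested: 3 fell, 1 rose and 4 did not pass, and none of the 8 had overlapping groups. Over all tested genes 6.7% fell, 9.58% rose and 62.8% had no overlap. The median log2 fold change of the class was -0.24. Kcnab1 and Kcnab2 encode Kvβ subunits, cytoplasmic proteins that bind Kv1 channels and speed their inactivation or promote their surface expression. They changed in opposite directions. Kcnab1 (chromosome 3, 65109384 to 65378223, plus strand) was at 1505 and 1148 normalized counts in knockout cells and 3628 and 3431 in wild-type cells, a 2.66-fold fall (log2 fold change -1.42 with SE 0.15, adjusted p = 0.00815 by limma). Kcnab2 (chromosome 4, 152390742 to 152477871, minus strand) had 123 and 157 normalized counts against only 11 and 28, which made a 7.18-fold rise (2.91 with SE 0.49, adjusted p = 0.0175 by limma). With wild-type replicate 2 left out the fold of Kcnab2 was 12.7, and with wild-type replicate 1 left out it was 5. Kcnab1 remained the more abundant of the pair: per kilobase it stood at 7.94 and 4.75 times Kcnab2 in knockout cells and at 214 and 79.5 times in wild-type cells. Against all Kcna genes summed, Kcnab1 per kilobase was 1.08 and 1.137 times as abundant in knockout cells and 6.23 and 4.46 times in wild-type cells. In the same libraries all 14 macrophage markers rose, by log2 fold changes of 2.28 to 3.88, as did 7 of 10 adipocyte and 5 of 10 endothelial markers. All 12 contractile smooth muscle markers were lower in both knockout libraries, 9 of them past the threshold, with a median log2 fold change of -0.99. Any link to Kcnab1 or Kcnab2 was not tested.

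KChIP proteins, encoded by the Kcnip genes, bind calcium and modulate Kv4 channels such as that of Kcnd3. Kcnip4 was at 109 and 99 against 283 and 249, a 2.56-fold fall (log2 fold change -1.35 with SE 0.19, adjusted p = 0.0125 by limma), with little spread within either group. It fell with Kcnd3, and per kilobase its ratio to Kcnd3 was 1.11 and 1.95 in knockout cells and 0.827 and 0.823 in wild-type cells. Kcnip3 was at 63 and 38 against 22 and 15 (1.38 with SE 0.46, adjusted p = 0.0942 by limma). The other auxiliary genes were low: Kcnab3 was at 36 and 16 against 7 and 15, and Kcne1, Kcne2, Kcne3 and Kcnip2 did not exceed 3 normalized counts in any library.

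**Figure D3:**
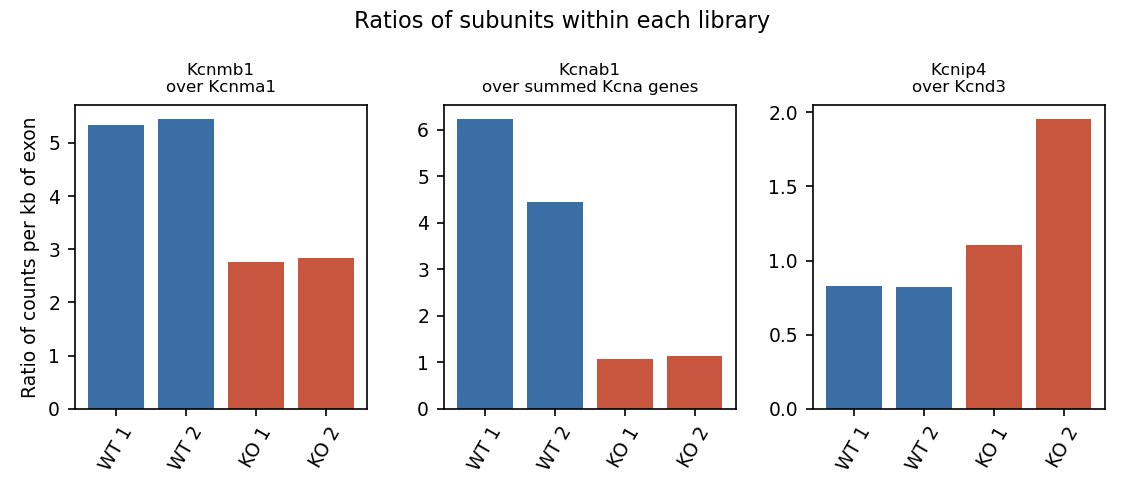
Ratios of potassium channel subunit levels per kilobase of exon (y axis) within each library, in 3 panels, with wild-type libraries in blue and knockout libraries in red. The bars for Kcnmb1 over Kcnma1 stand at 5.35 and 5.44 in wild-type cells and 2.76 and 2.83 in knockout cells, and the groups do not overlap in any panel.

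Two-pore-domain channels, the Kcnk genes, pass a background potassium current that holds the resting potential. Their 14 genes included 6 that were tested: 2 rose, none fell (0 at an unadjusted p under 0.05, by limma) and 4 did not pass, where 9.58% of all tested genes rose and 6.7% fell. With 6 genes, and 1 of the risers tested only through its knockout level, the share is coarse. Over all 15058 tested genes, 2199 were lower at an unadjusted p under 0.05 by limma. Kcnk3, the acid-sensitive channel TASK-1 (chromosome 5, 30588170 to 30625271, plus strand), was at 451 and 260 in knockout cells and 73 and 134 in wild-type cells. Every knockout value was above every wild-type value, a 3.43-fold rise (log2 fold change 1.78 with SE 0.38, adjusted p = 0.031 by limma). Kcnk13, the channel THIK-1 (chromosome 12, 99964499 to 100062682, plus strand), rose from 7 and 9 to 36 and 73 (2.55 with SE 0.54, adjusted p = 0.0301 by limma). Its wild-type mean of 8.0 lay below the filter, so Kcnk13 is the gene tested only through its knockout level. Its fold was 6.81, and 4.50 without knockout replicate 2. Kcnk6, or TWIK-2, was at 230 and 250 against 87 and 151 (1.06 with SE 0.29, adjusted p = 0.0601 by limma). Kcnk1 had a negative fold change, at 10 and 39 against 53 and 51 (-1.34 with SE 0.65, adjusted p = 0.218 by limma), and Kcnk7 was at 41 and 39 against 50 and 30. The mechanosensitive channel gene Kcnk2, or TREK-1, was low at 23 and 13 against 11 and 9. In the same knockout libraries macrophage (14 of 14), adipocyte (7 of 10), endothelial (5 of 10), proliferation (4 of 7) and fibroblast (2 of 10) markers rose past the threshold. Both knockout libraries exceeded both wild-type libraries for all 14 macrophage, 10 endothelial, 10 fibroblast and 7 proliferation markers and for 9 of 10 adipocyte markers. That held for 30.7% of all tested genes. Any link to the rises of Kcnk3 and Kcnk13 was not tested.

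Inward rectifiers, the Kcnj genes, pass current best near the potassium equilibrium and include the pore of the ATP-sensitive channel. Of 15 genes, 6 were tested and limma called none, where 9.58% of all tested genes rose and 6.7% fell. At an unadjusted p under 0.05 by limma, 2 of the 6 were higher and none lower. Over all 15058 tested genes, 2699 were higher and 2199 lower at that unadjusted p, so with 6 genes this count is coarse. Kcnj15 was the inward rectifier gene with the highest level, at 822 and 1639 in knockout cells and 1464 and 2673 in wild-type cells. In both groups replicate 2 held much more than replicate 1, and the groups overlapped (-0.77 with SE 0.39, adjusted p = 0.239 by limma). Kcnj8, the ATP-sensitive pore of vascular muscle, was at 365 and 502 against 256 and 313 (0.59 with SE 0.21, adjusted p = 0.107 by limma). Abcc9, its sulphonylurea receptor partner, was far more abundant at 16973 and 14364 against 18954 and 16191, with overlapping groups, and the count of Kcnj8 equalled 2.15% and 3.50% of that of Abcc9 in knockout cells and 1.35% and 1.93% in wild-type cells. Kcnj2, the strong inward rectifier of vascular and immune cells, was at 52 and 162 against 6 and 35. Its 5.22-fold difference in means came with a wide error (log2 fold change 2.55 with SE 0.90, adjusted p = 0.11 by limma). Kcnj11 and Kcnj12 were low, at 12 and 24 against 27 and 19 and at 21 and 11 against 30 and 22. Kcnj13, at 42 and 26 against 34 and 29, shares 49.1% of its exon length with Gigyf2 on the other strand, so reads of the pair may be mixed.

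**Figure D4:**
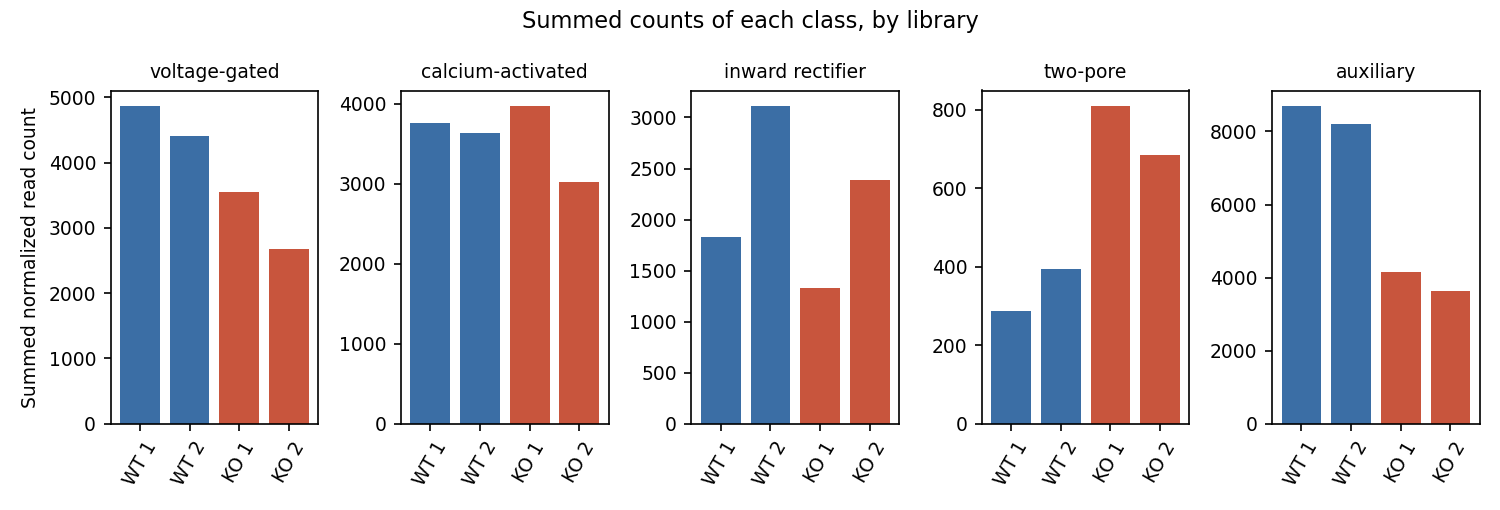
Summed normalized read counts (y axis, from 0) of all genes of each potassium channel class in the wild-type (blue) and knockout (red) libraries. The auxiliary sum stands at 8687 and 8209 in wild-type cells and 4155 and 3628 in knockout cells, the two-pore-domain sum at 286 and 393 against 808 and 685, and the calcium-activated sums overlap.

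Summed over all 93 genes, the family had 13810 and 12396 normalized counts in knockout cells and 19422 and 19749 in wild-type cells, a ratio of means of 0.669. These sums were not tested, and 2 libraries against 2 cannot go below an exact two-sided permutation p of 0.333. Auxiliary genes made up 44.7% and 41.6% of the family's counts in wild-type cells and 30.1% and 29.3% in knockout cells. Most auxiliary counts in every library came from Kcnmb1 and Kcnab1. Kcnmb1 was at 1805 and 1537 in knockout cells and 4364 and 4017 in wild-type cells. Kcnab1 was at 1505 and 1148 against 3628 and 3431. Of the 8 tested auxiliary genes, 4 had a positive and 4 a negative log2 fold change, so the class and family sums do not speak for each gene. Voltage-gated genes summed to 3548 and 2674 against 4861 and 4408, a ratio of means of 0.671. Two-pore-domain genes, the smallest share, made up 1.47% and 1.99% in wild-type cells and 5.85% and 5.53% in knockout cells. Calcium-activated genes summed to 3966 and 3021 against 3762 and 3630, and inward rectifiers to 1333 and 2388 against 1826 and 3109, both with overlapping groups.

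**Figure D5:**
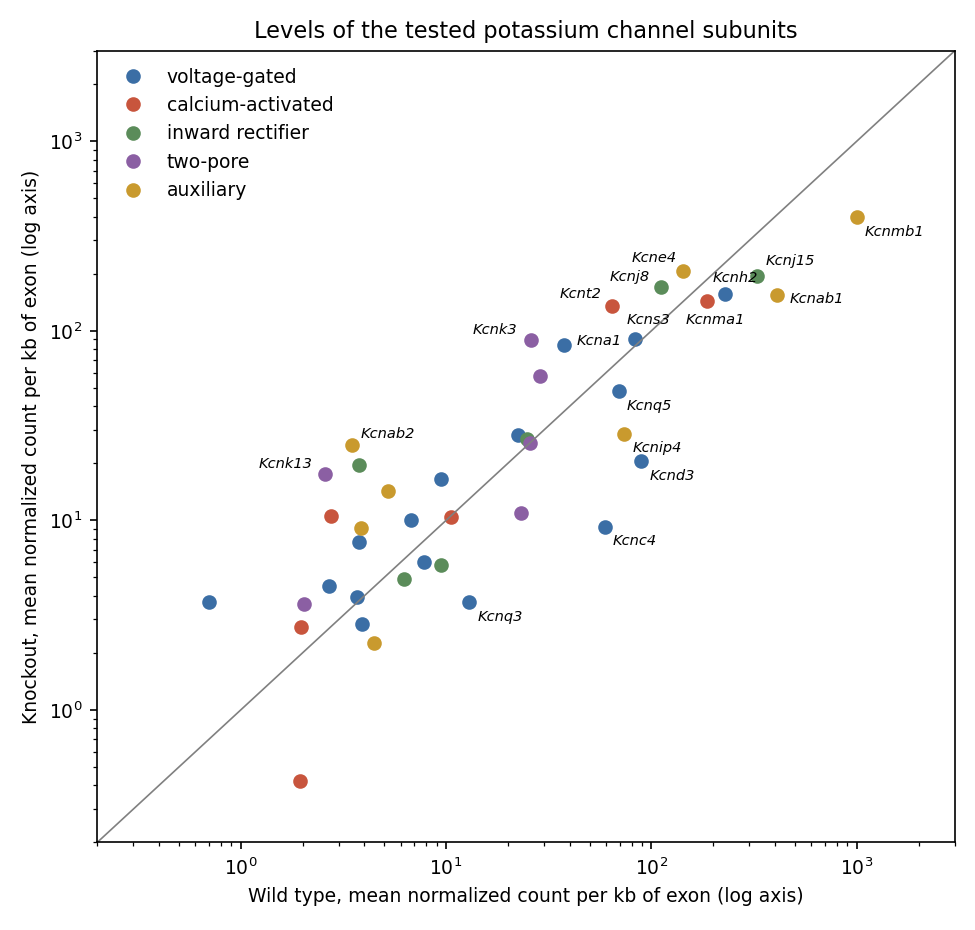
Mean normalized read count per kilobase of exon in wild-type cells (x axis) and the knockout (y axis), both on log axes, for 42 of the 44 tested potassium channel genes, coloured by class, with the diagonal marking equal levels. Kcnmb1 lies farthest to the upper right in both groups, and Kcnc4, Kcnd3 and Kcnq3 lie well below the diagonal.

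Per kilobase of exon, the order of the genes differed between the groups. Kcnmb1 was first in both, with a mean of 1000 normalized counts per kilobase in wild-type cells and 399 in knockout cells, where the median of all tested genes over the 4 libraries was 59.4. The wild-type order went on with Kcnab1 (411), Kcnj15 (328), Kcnh2 (228), Kcnma1 (185) and Kcne4 (143). The knockout order went on with Kcne4 (208), Kcnj15 (195), Kcnj8 (170), Kcnh2 (155) and Kcnab1 (154). Kcnd3 went from rank 9 to rank 21 among the members and Kcnc4 from rank 14 to rank 30, while Kcnk3 went from rank 18 to rank 10.

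The 49 genes below the filter reached at most 18 normalized counts in a library, and 11 of them were listed at 0 in all 4: Kcna7, Kcna10, Kcne2, Kcnj5, Kcnk9, Kcnk10, Kcnk12, Kcnk15, Kcnmb2, Kcns1 and Kcnv1. Each read was worth an estimated 1.12 to 1.13 normalized counts in knockout cells and 0.864 to 0.911 in wild-type cells, so differences among these genes rest on a few reads and are not compared here. Of the tested members, 3 had a wild-type mean below 10 and 2 a knockout mean below 10, and these were tested through the other group.

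Of 10 listed proteins that assemble with potassium channels or bind their subunits, 4 were expressed enough to be tested. Limma called none of them (0 at an unadjusted p under 0.05), where 9.58% of all tested genes rose and 6.7% fell. At that unadjusted p, 2699 of all 15058 tested genes were higher and 2199 lower. Amigo1, which binds Kv2 channels, was at 397 and 279 against 488 and 424, a log2 fold change of -0.45 with SE 0.21. The BK γ subunit gene Lrrc26 did not exceed 3 normalized counts, and Dpp6 and Dpp10, the Kv4 partners, did not exceed 13. Among 20 other genes of smooth muscle membrane potential and calcium release, 4 fell (Itpr1, Ryr2, Cacna1c and Cacna1d) and 3 rose (Cacna1h, Trpc6 and Trpv4), beside the background shares of 6.7% and 9.58%. Ryr2, a calcium release channel of the internal store that can activate BK channels, was at 2761 and 2350 against 5738 and 4582 (-1.01 with SE 0.15, adjusted p = 0.0136 by limma). Cacna1c, the L-type calcium channel that depolarization opens, was at 2346 and 2413 against 3040 and 3207 (-0.39 with SE 0.10, adjusted p = 0.0454 by limma). After quantile normalization 1 of this list rose, and after rescaling to the same total 2 fell.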

How the data were processed

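The table holds 1 column per library. After removal of ribosomal RNA, libraries were prepared with a stranded total RNA kit, per the labels' protocols, and the submitters' processing notes list STAR 2.5.2b, featureCounts 1.5.1 and DESeq2 1.14.1 with mm10/GRCm38, without roles. The sources used here do not give the strand setting, annotation or filters. The deposited values are a score: normalized read counts that the authors rounded to whole numbers, in which the knockout columns skip 45 and 44 of the whole numbers up to 400. That spacing gave the estimated size factors (0.887 to 1.16) behind the reads per library, and no count model was run. Values were tested as log2(value + 1) in R 4.3.3 with limma 3.58.1, intensity trend and group as single term, two-sided, over the 15058 genes with a mean of at least 10, with Benjamini-Hochberg adjustment and a threshold of 0.05. The test was run on simulated data that had changes only in better-expressed genes and the same spread for all genes. That run does not cover low or more variable genes. Exon lengths, positions and overlaps come from GENCODE M21, which held 92 of the 93 rows and 99.0% of tested genes. Named genes are all members past the threshold or with a mean of at least 100, the top 3 per kilobase and the largest non-overlapping changes of each class, and list leaders; a few others were named after their values were seen. The members and lists were chosen with earlier results of these data known. Further lists are counted beside 9.58% higher and 6.7% lower over all tested genes. Of 11 tested cardiac and skeletal muscle markers 1 rose, and of 7 pericyte markers 1 rose and 1 fell. The pericyte list holds the member Kcnj8 and its partner Abcc9. Of 7 proliferation markers 4 rose, and none of 6 lymphocyte markers was tested. Results for 2 tested voltage-gated genes are not reported here, although both enter the counts and sums.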

Additional observations from a re-analysis of the deposited data

How the results depend on the processing

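Over all genes, limma called 1443 higher and 1009 lower. Without a filter on low counts it called 0 and 0 genes (2812 and 2660 at an unadjusted p under 0.05), 0 and 0 members, and 0 and 0 genes of the membrane potential list. Without the intensity trend the counts were also 0 and 0 for all genes (2394 and 1880 at an unadjusted p under 0.05), the members and that list. Leaving out a library gave 0 to 718 genes higher and 0 to 197 lower, 0 to 1 members higher and 0 to 3 lower, and 0 to 1 of the membrane potential list higher and 0 to 2 lower, with the nonzero counts coming from the fit without wild-type replicate 2. An arm of 1 library is assumed to vary like the other group. The list's 3 higher genes were 1 after quantile normalization, and its 4 lower genes were 2 after rescaling to the same total. Members called higher numbered 6 after that rescaling, against 3.

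Without a block the fit called 3 members higher and 7 lower, and 1443 and 1009 of all 15058 tested genes. The replicate block called 8 members higher and 9 lower, and 1823 and 1213 of all tested genes. It added Kcne4, Kcnj2, Kcnj8, Kcnk6 and Kcnn4 as higher and Kcnh2 and Kcnj15 as lower, the last with a limma adjusted p of 0.00714. The shared numbers are not stated to pair animals. The difference between the knockout libraries correlated with that between the wild-type libraries at 0.118 across 15058 genes. Across the 44 tested members that correlation was -0.14. The block is therefore given only here.

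The log2 ratio of the summed counts was -0.58 for all members, -0.50 after rescaling to the same total and -0.66 to -0.50 with a library left out. It was -0.57 for voltage-gated genes (-0.79 to -0.39 with a library left out). For calcium-activated genes it was -0.08 (-0.29 to 0.10) and for inward rectifiers -0.41 (-0.89 to 0.027), so in both it changed sign, without knockout replicate 2 and without wild-type replicate 2.

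Among single genes, small changes turned direction: Kcnn1 was at 0.049 after rescaling to the same total, and after quantile normalization Kcnj13 was at -0.24, Kcnk7 at -0.27, Abcc9 at 0.10 and Kcnrg at -0.15. Lrrc55 was at 0.0062 with TMM factors and 0.076 at the same total. With a library left out, ranges crossed 0 for Kcns3 (-0.19 to 0.40), Kcnn1 (-0.14 to 0.071), Kcnj13 (-0.26 to 0.41), Kcnk7 (-0.32 to 0.40), Lrrc55 (-0.38 to 0.38), Rgs5 (-0.17 to 0.345) and Ttn (-2.11 to 1.06). The cause was not tested. Depth limits genes of a few reads, which rounding blurs further.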
